A study of Sus scrofa with 90 samples.

Results

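Muscle lesions of 2 ages, 6 h and 2 d after an intramuscular injection of propylene glycol, were compared within the same piglets. Propylene glycol is a solvent that serves as a vehicle for injected drugs. The samples were chosen by their labels, apart from the exclusions on array values given below. In this way 9 lesions of 6 h and 10 lesions of 2 d entered the comparison, out of 48 muscle samples of the series. Both ages were present in 9 pigs (C, D, E, G, H, I, J, K and L), and pig F contributed its 2 d lesion without a 6 h partner.

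All samples came from the Longissimus dorsi, a back muscle made mainly of fast fibres. Each of the 10 piglets carried lesions of several ages (6 h, 2 d, 7 d and 21 d) at randomised sites together with a site left without injection, so every sample, the non-injected one included, came from an animal that had received the solvent elsewhere. Strain, sex and age of the piglets are not given in the labels, and no other agent or genotype is named. RNA was labelled with radioactive phosphorus and hybridised to cDNA arrays, 1 array per muscle sample, so replicates of a lesion age are separate pigs.

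In injured skeletal muscle, damaged fibres lose membrane integrity first, and inflammatory cells then enter and clear debris before satellite cells rebuild fibres. Cytokine receptors that signal through Janus kinases, stress proteins of mitochondria, and proteins that tie actin filaments to the Z disc and fibre ends are among the genes known to respond in such tissue. These classes are named as background to genes described below, and no expectation on them was set beforehand. In a piece of whole muscle, fewer cells of a type and less RNA per cell cannot be told apart.

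Levels are values on the authors' log scale after quantile normalization between arrays, and differences are 2 d minus 6 h in the same log units. The labels and the table do not name the base of the logarithm. A difference of 1 unit is a factor of 2 in base 2 and of 2.72 on the natural scale. Means are given ± SD over 9 lesions of 6 h and 10 of 2 d, fitted differences with their standard error (SE), and a feature was called at a Benjamini-Hochberg adjusted p below 0.05 in limma over all 1908 features with a value in every column. Levels of different features are not comparable as amounts of RNA, since each spot has its own probe. The highest mean level served only as a rule to pick 1 feature for a gene.

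Several facts on the arrays come before the results. The 6 h array of pig F was left out because its values matched the mean profile at r = 0.739 only when moved by 384 features, and at r = 0.24 in place, where none of the other 47 arrays fell below 0.718. For the 6 h lesion of pig J, 1 of its 2 columns repeated the values of pig I's control muscle and was dropped. Symbols are known for 206 of the 1908 features, which stand for 121 genes. Features that carry the same symbol often differed in level and direction, as described below for the fast fibre genes, so each gene named here stands for the feature listed under its symbol. Of the genes that define muscle, the fast myosin light chain MYLPF, the troponin TNNC2 and the creatine kinase CKM were measured, while no satellite cell or regeneration gene among 18 sought was. The labels give no date or batch.

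At 2 d, 118 of 1908 features (6.18%) differed from 6 h, 29 higher (1.52%) and 89 lower (4.66%). By unadjusted p below 0.05 there were 341 (17.9%). Among the 121 genes with a symbol, taking the feature with the highest mean for each, 5 were called (4.13%), which is below the share over all features. XIRP2, JAK1 and HSPE1 were lower at 2 d, and QDPR and TPM2 were higher. The split of the calls moved with the processing: it was 5 higher and 35 lower on values that were not quantile normalized, 6 and 37 on median-centred values, 31 and 57 with the 6 h array of pig F kept, and 124 and 191 with array weights.

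**Figure D1:**
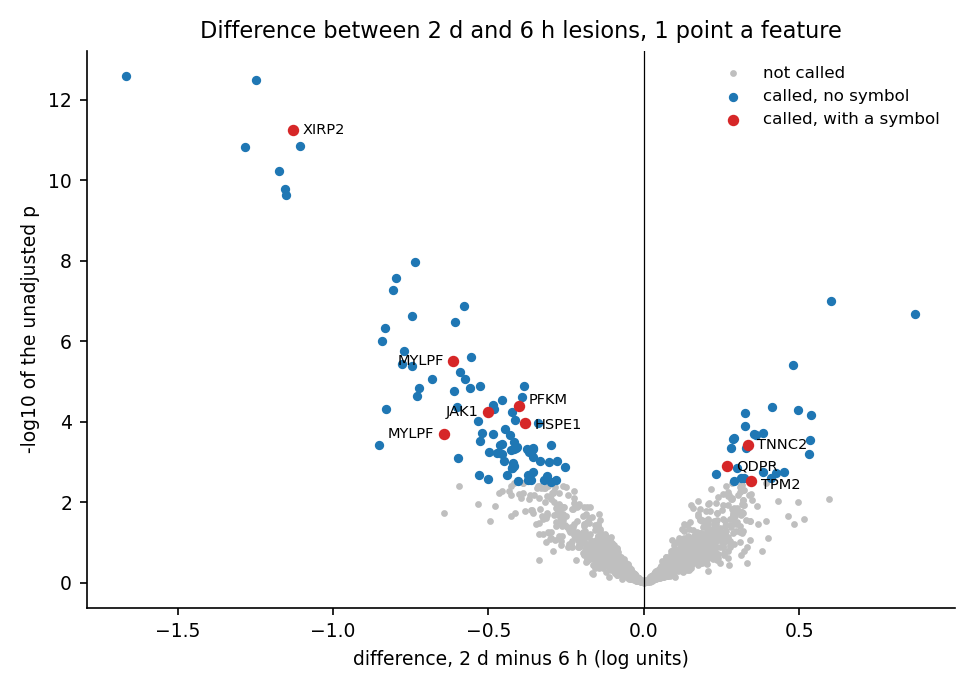
Each point is 1 of the 1908 features, with the fitted difference between 2 d and 6 h lesions in log units on the x axis and -log10 of the unadjusted limma p on the y axis. Features called at an adjusted p below 0.05 are coloured, in red where they carry a symbol; the largest falls reach -1.67 and the largest rise 0.87.

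XIRP2 encodes an actin-binding protein found at myofibril ends in skeletal and heart muscle, and its feature had the largest difference among those with a symbol. In the 9 lesions of 6 h its level had a lowest value of 0.76, a median of 1.16 and a highest value of 1.49. In the 10 lesions of 2 d the lowest was -0.11, the median 0.0054 and the highest 0.65. Every 2 d lesion lay below every 6 h lesion, so the groups did not overlap. Only 26 of the 1908 features (1.36%) separated the groups in this way, 3 higher and 23 lower at 2 d, and XIRP2 and JAK1 were the 2 with a symbol.

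The fitted difference of XIRP2 was -1.13 (SE 0.115, 95% interval -1.36 to -0.89, adjusted p = 3.65e-09), with the same sign in 9 of 9 pigs. Read as base 2 that is 2.19-fold lower, and on the natural scale 3.09-fold lower. The difference within a pig ran from -1.35 in pig I to -0.75 in pig D. Pig E had the highest level at both ages, 1.49 at 6 h and 0.65 at 2 d, and its difference was -0.84. The mean level was 1.18 ± 0.20 at 6 h and 0.08 ± 0.22 at 2 d, beside -0.004 ± 0.14 (n = 10) in non-injected muscle, 2.10 ± 0.39 (n = 9) at 7 d and 2.22 ± 0.44 (n = 9) at 21 d. The 2 d lesions thus had the lowest mean level of XIRP2 among the lesion ages. The feature 1 place before it on the list carries the symbol MYOZ1, a Z disc protein, and its difference was -0.39 (SE 0.134, adjusted p = 0.0761); any part of neighbouring spots in the result was not tested.

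JAK1, the tyrosine kinase that carries signals from receptors for interleukin 6 and interferons, was the other gene whose groups did not overlap. Its 6 h levels had a lowest value of 0.17, a median of 0.54 and a highest value of 0.84. Its 2 d levels had a lowest value of -0.14, a median of -0.0097 and a highest value of 0.17. The margin between the groups was narrow, with the highest 2 d lesion (pig D, 0.1718) just under the lowest 6 h lesion (pig H, 0.1728). JAK1 differed by -0.50 (SE 0.111, 95% interval -0.73 to -0.28, adjusted p = 0.00249), and it was lower at 2 d in 9 of 9 pigs. Within pigs the difference ran from -0.89 in pig E to -0.09 in pig H. Its mean level was 0.50 ± 0.25 at 6 h and 0.004 ± 0.099 at 2 d, beside -0.18 ± 0.15 in non-injected muscle, 0.56 ± 0.43 at 7 d and 0.36 ± 0.27 at 21 d.

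HSPE1 is the small chaperonin of the mitochondrial matrix, which helps to fold imported proteins. Its 6 h levels had a lowest value of 2.37, a median of 2.82 and a highest value of 3.22, and its 2 d levels ran from 2.12 over a median of 2.35 to 2.70. Of the 10 lesions of 2 d, 6 lay below all 6 h lesions, and the groups overlapped. HSPE1 differed by -0.38 (SE 0.0886, 95% interval -0.56 to -0.20, adjusted p = 0.00421), in 7 of 9 pigs. The other pigs went the opposite way, pig G by 0.24 and pig H by 0.06. Its mean level was 2.79 ± 0.24 at 6 h and 2.39 ± 0.17 at 2 d, beside 2.11 ± 0.16 in non-injected muscle, 2.70 ± 0.19 at 7 d and 2.43 ± 0.28 at 21 d. The call was lost with other scaling: on values without scaling between arrays HSPE1 was at -0.09 (adjusted p = 0.892) and on median-centred values at -0.09 (adjusted p = 0.901). With the 6 h array of pig F kept in place it was at -0.16 (adjusted p = 0.641), and with only the 6 h and 2 d lesions in the fit at -0.39 (adjusted p = 0.0591).

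QDPR encodes dihydropteridine reductase, which regenerates the cofactor tetrahydrobiopterin. Its levels at 6 h had a lowest value of 0.58, a median of 0.91 and a highest value of 1.07, and at 2 d a lowest of 0.82, a median of 1.17 and a highest of 1.38. All but 1 of the 2 d lesions, that of pig D, lay above all 6 h lesions. QDPR differed by 0.27 (SE 0.0771, 95% interval 0.11 to 0.42, adjusted p = 0.0265) and was higher at 2 d in 8 of 9 pigs, with pig D at -0.21. The largest rise was in pig G, at 0.59, where the 6 h level was the lowest of its group. The mean level was 0.91 ± 0.14 at 6 h and 1.17 ± 0.15 at 2 d, beside 1.25 ± 0.19 in non-injected muscle, 0.87 ± 0.16 at 7 d and 0.90 ± 0.22 at 21 d. The call was lost under 12 of 21 alternatives, among them values without scaling between arrays (0.35, adjusted p = 0.404) and leaving out pig F, G, J, K or L (adjusted p up to 0.0836).

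TPM2 encodes beta-tropomyosin, which lies along the thin filament and controls access of myosin to actin. The 6 h levels had a lowest value of 0.09, a median of 0.37 and a highest value of 0.70, and the 2 d levels a lowest of 0.22, a median of 0.74 and a highest of 0.96. Of the 2 d lesions, 8 lay above all 6 h lesions. TPM2 differed by 0.35 (SE 0.109, 95% interval 0.13 to 0.57, adjusted p = 0.0487), higher at 2 d in 8 of 9 pigs and at -0.009 in pig D. Its mean level was 0.39 ± 0.21 at 6 h and 0.72 ± 0.22 at 2 d, beside 0.94 ± 0.09 in non-injected muscle, 0.45 ± 0.41 at 7 d and 0.47 ± 0.34 at 21 d. The other 2 features listed as TPM2 were at 0.04 (adjusted p = 0.85) and -0.07 (adjusted p = 0.632). The call was lost under 14 of 21 alternatives, with 0.29 (adjusted p = 0.184) without pig L and 0.33 (adjusted p = 0.102) without the animal block. Leaving out pig C, F, G, H, J or K ended it as well (adjusted p up to 0.104).

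**Figure D2:**
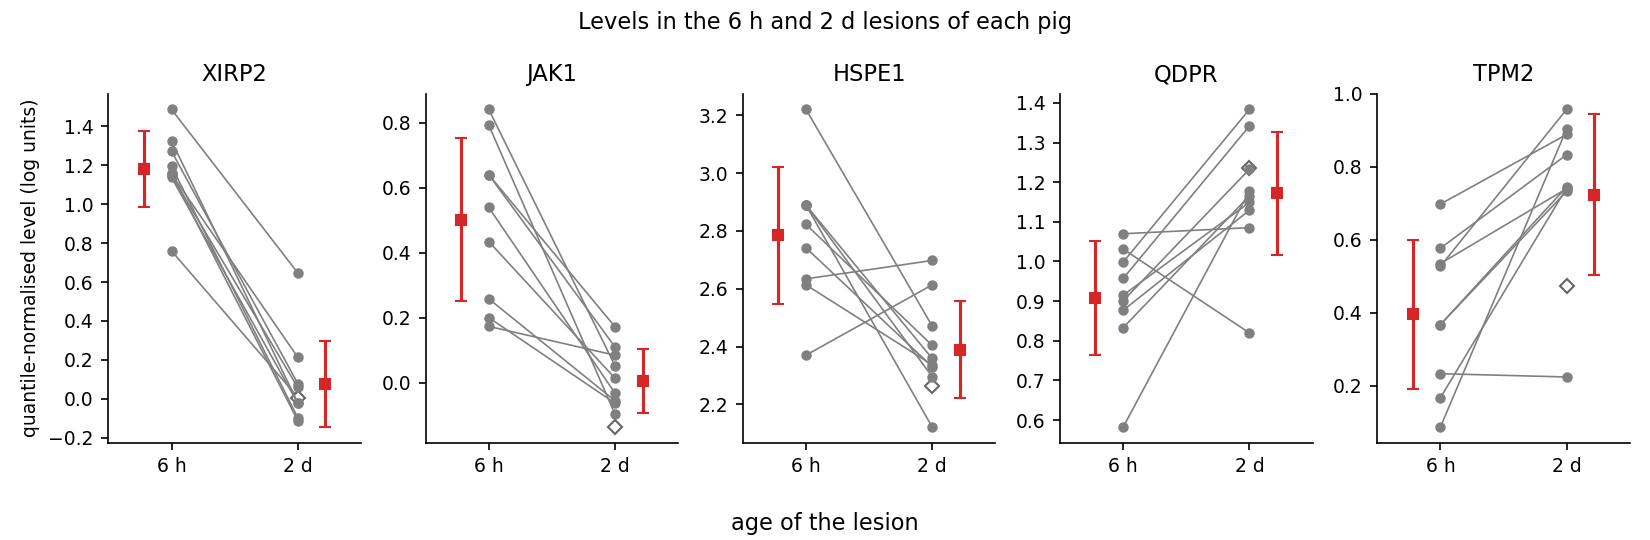
Quantile-normalised level in log units (y axis, a scale of its own in each panel) in the 6 h and 2 d lesions (x axis) for the 5 called genes. Grey lines join the lesions of a pig, the open diamond is the 2 d lesion of pig F, and red squares with bars are means ± SD; XIRP2 and JAK1 fell in all 9 pigs, HSPE1 in 7, and QDPR and TPM2 rose in 8.

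The next 15 genes by unadjusted p did not pass the test, and their values are given without a call. Of the 15, 11 had estimates above 0 and 4 below. PMVK, an enzyme of the mevalonate pathway to cholesterol, was at 0.26 (SE 0.0859, adjusted p = 0.058, 7 of 9 pigs), with levels of 1.59 ± 0.16 at 6 h and 1.86 ± 0.19 at 2 d. PTGS2, the inducible cyclooxygenase that makes prostaglandins in inflammation, was at -0.22 (SE 0.0758, adjusted p = 0.0706, 8 of 9 pigs), from -0.04 ± 0.19 at 6 h to -0.26 ± 0.13 at 2 d. PTGS2 passed the test under 3 of 21 alternatives and PMVK under 5, and over all of them the adjusted p ran from 0.00172 to 0.289 for PTGS2 and from 0.0343 to 0.532 for PMVK.

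Among genes of muscle metabolism in this group, UCP3, a carrier of the inner mitochondrial membrane, was at 0.21 (adjusted p = 0.112), COX7A1, a muscle subunit of cytochrome oxidase, at 0.21 (adjusted p = 0.265), and the creatine kinase CKM at 0.14 (adjusted p = 0.332). MAPK12, a p38 kinase abundant in muscle, was at 0.20 (adjusted p = 0.138, 8 of 9 pigs), with levels of 2.31 ± 0.19 at 6 h and 2.51 ± 0.08 at 2 d. RPSA, a ribosomal and laminin-binding protein, was at 0.27 (adjusted p = 0.115, 8 of 9 pigs), EEF1G, a subunit of an elongation factor, at 0.26 (adjusted p = 0.291), and the slow troponin T gene TNNT1 at 0.30 (adjusted p = 0.283). These intervals were wide beside the estimates: that of CKM ran from -0.01 to 0.30 and that of TNNT1 from -0.001 to 0.59.

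Of the secreted and cell surface proteins, ORM1, an acute phase glycoprotein of plasma, was at 0.29 (adjusted p = 0.171), with that sign in 5 of 9 pigs. FN1, fibronectin of the extracellular matrix, was at 0.18 (adjusted p = 0.33, 8 of 9 pigs), OXTR, the oxytocin receptor, at 0.23 (adjusted p = 0.22), and APP, the amyloid precursor protein, at -0.31 (adjusted p = 0.294). PLCD4, a phospholipase C, was at -0.15 (adjusted p = 0.238), and PSME3, an activator of the proteasome, at -0.31 (adjusted p = 0.312). Without pig G the estimates were nearer to 0 for APP (-0.18), ORM1 (0.18) and OXTR (0.14).

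By gene list, the counts of called members are read beside 6.18% over all features and 4.13% over the genes with a symbol, and 1 feature, that with the highest mean, stands for each gene. Of 5 measured genes of the shared sarcomere and Z disc, 1 rose (TPM2) and 1 fell (XIRP2), and the median difference was 0.13. DES, the intermediate filament desmin, was at 0.31 (SE 0.24, adjusted p = 0.534), MYOZ1 at 0.13 in its brightest feature (adjusted p = 0.787) and ANKRD1, a stress-responsive ankyrin repeat protein, at 0.07 (adjusted p = 0.671). The median over all features was 0.02 and over the 121 genes 0.04.

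Of 8 genes of the fast fibre sarcomere none was called by limma, and none had an unadjusted p below 0.05, in its feature with the highest mean. Other features of MYLPF and TNNC2 were called, as given below. The median of the 8 genes was -0.05, within a range from -0.16 for TNNT3, the fast troponin T, to 0.27 for MYLPF. TNNI2, the inhibitory troponin of fast fibres, was at -0.11 (SE 0.0569, adjusted p = 0.338, 6 of 9 pigs). Without pig G it was at -0.04, TNNT3 at -0.09 and MYLPF at 0.09. The SE of MYLPF was 0.23, so a difference between -0.20 and 0.74 lay within its interval. Of 7 slow fibre and cardiac-type genes none was called and none had an unadjusted p below 0.05, with a median of -0.09. In this list 4 estimates were below 0 and 3 above. The slow myosin MYH7 was at -0.11 (SE 0.092, adjusted p = 0.567), the calcium pump ATP2A2 at -0.13 (adjusted p = 0.589), the natriuretic peptide precursor NPPA at -0.15 (adjusted p = 0.458) and FHL1, a LIM domain protein of slow fibres, at -0.09 (adjusted p = 0.511). Above 0 were TNNT1 at 0.30 (adjusted p = 0.283), TPM3 at 0.03 (adjusted p = 0.917) and MYL2 at 0.01 (adjusted p = 0.973). The 4 features of MYH7 ran from -0.11 to 0.15, with 2 above 0 and 2 below.

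Of 10 genes of glycolysis, glycogen and creatine kinase none was called and none had an unadjusted p below 0.05 in its feature with the highest mean. Other features of PFKM and CKM did, as given below. Their median was 0.07, with 7 estimates above 0 and 3 below. PYGM, the glycogen phosphorylase of muscle, was at 0.38 (SE 0.266) and GAPDH, a glycolytic dehydrogenase, at 0.33 (SE 0.215), with the largest estimates and the largest SEs of the list. Without pig G they were at 0.58 and 0.11. At 6 h the levels of PYGM had an SD of 0.70 and at 2 d of 0.75, which is larger than the difference.

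Of 14 genes of translation and the ribosome none was called and 1, RPSA, had an unadjusted p below 0.05 in its feature with the highest mean. Of the 14, 10 had estimates above 0 and 4 below, and the median was 0.09. The levels of RPSA were low, -0.45 ± 0.14 at 6 h and -0.18 ± 0.21 at 2 d. RPL19, a protein of the large ribosomal subunit, was at 0.20 (adjusted p = 0.378, 8 of 9 pigs), and RACK1, a scaffold of the small subunit, at -0.14 (adjusted p = 0.521). Their other features were at -0.005 for RPL19 and 0.20 for RACK1. RPS20 was at -0.12 in its brightest feature, while another of its features was at 0.24 (unadjusted limma p = 0.0186, 8 of 9 pigs). Of 4 genes for oxidative phosphorylation and chaperonins, HSPE1 fell and no gene rose, and 2 had an unadjusted p below 0.05. The other of these was COX7A1, at 0.21 (unadjusted p = 0.0464, higher at 2 d in 7 of 9 pigs), while VDAC1, the pore of the outer mitochondrial membrane, was at -0.07 (adjusted p = 0.693) and NDUFA4 at 0.02 (adjusted p = 0.959).

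Of 4 genes of cytokine and kinase signalling, JAK1 fell and no gene rose, and 2 had an unadjusted p below 0.05. The other of these was MAPK12, at 0.20 (unadjusted p = 0.0165, higher at 2 d in 8 of 9 pigs), which passed the adjusted test with array weights only (0.21, adjusted p = 0.025). MIF, a cytokine that retains macrophages, was at 0.14 (adjusted p = 0.63), and NFKBIA, the inhibitor of NF-kappaB, at -0.03 (adjusted p = 0.892, interval -0.21 to 0.15). Of 3 genes of the non-muscle cytoskeleton none was called, with ACTB, beta-actin, at -0.12 (adjusted p = 0.663), CFL1, the actin-severing cofilin, at -0.13 (adjusted p = 0.469) and TUBA1B, an alpha-tubulin, at -0.02 (adjusted p = 0.897). CFL1 turned to 0.12 without scaling and to 0.13 on median-centred values. In the feature with the highest mean of each gene, the non-muscle cytoskeleton, fast and slow fibre lists had no unadjusted p below 0.05. Another ACTB feature was at 0.29 (unadjusted limma p = 0.0188, higher at 2 d in 7 of 9 pigs). Of the 7 ACTB features, 4 had estimates above 0 and 3 below.

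Markers of cells that enter or surround fibres were few on the arrays. Of 27 markers of neutrophils, macrophages and lymphocytes only CD74, the invariant chain of antigen presentation, was measured, at 0.10 (SE 0.152, adjusted p = 0.772). Of 15 markers of endothelium, blood and fat only PECAM1, an adhesion molecule of endothelium, was measured, at 0.02 (adjusted p = 0.926). Of 24 genes of fibroblasts, collagens and matrix 3 were measured and none was called or had an unadjusted p below 0.05: FN1 above, POMGNT1, an enzyme that glycosylates dystroglycan, at 0.06 (adjusted p = 0.8), and ANPEP, aminopeptidase N of the cell surface, at 0.03 (adjusted p = 0.938). ANPEP turned to -0.001 without scaling. With 1 gene from the leukocyte list, the share of leukocytes in the 6 h and 2 d samples could not be read from these arrays, and its part in the result was not tested. The stress and proteolysis lists held 1 measured gene each, HSP90AA1 at 0.12 (adjusted p = 0.55) and CAPNS1, the small calpain subunit, at 0.23 (adjusted p = 0.551).

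**Figure D3:**
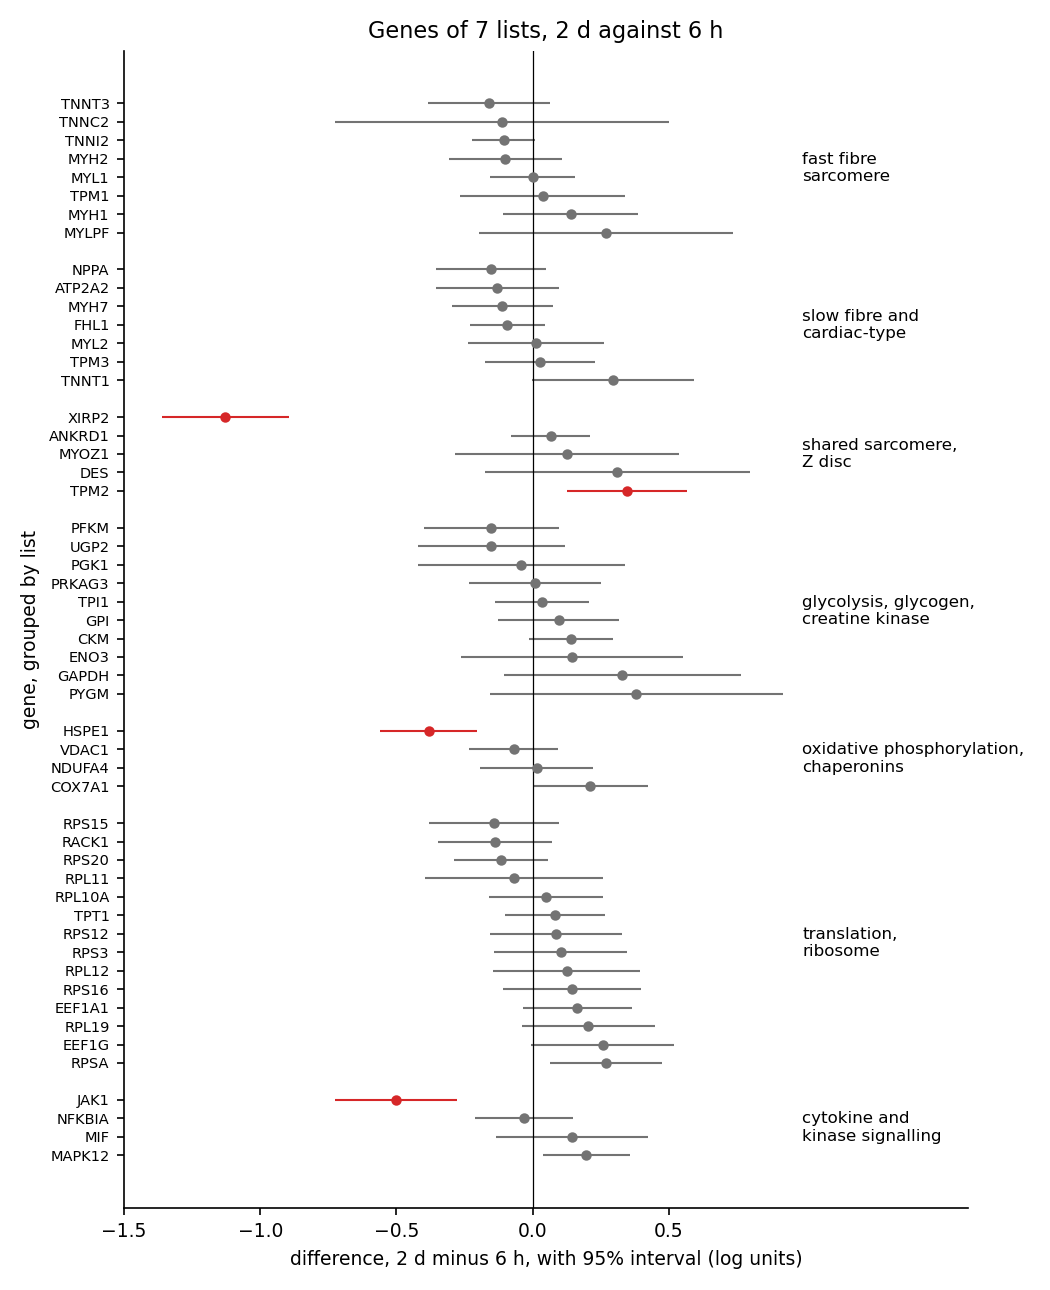
Fitted differences between 2 d and 6 h lesions in log units (x axis) with 95% intervals for the measured genes (y axis) of the 7 lists with at least 4 of them. Red marks the genes called at an adjusted p below 0.05, which are XIRP2 at -1.13, TPM2 at 0.35, HSPE1 at -0.38 and JAK1 at -0.50; the other intervals are grey.

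Genes with several features gave a mixed picture. Of 31 such genes, 19 had features on both sides of 0. Over all 206 features with a symbol 9 were called, and 4 of these were not the feature with the highest mean of their gene, so they are named after their values were seen. Of the 18 features of MYLPF, the regulatory light chain of fast myosin, 2 were called lower and none higher, although 13 of the 18 estimates were above 0. One went from 1.38 ± 0.33 at 6 h to 0.77 ± 0.16 at 2 d (difference -0.61, adjusted p = 0.000276, 8 of 9 pigs), and the other from 1.55 ± 0.18 to 0.97 ± 0.38 (difference -0.64, adjusted p = 0.00684, 9 of 9 pigs). The 18 estimates ran from -0.64 to 0.27 with a median of 0.10.

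Of the 12 features of TNNC2, the calcium-binding troponin of fast fibres, 1 was called higher, at 0.33 (SE 0.086, adjusted p = 0.0108, 8 of 9 pigs), with a median over the 12 of 0.02. These 3 calls were lost without scaling and on median-centred values, where the SEs were larger: without scaling the TNNC2 feature was at 0.52 (SE 0.241) and the MYLPF features at -0.54 (SE 0.197) and -0.52 (SE 0.241). The MYLPF features also lost the call with the 6 h array of pig F kept, at -0.43 and -0.41. PFKM, the phosphofructokinase of muscle, had 1 of 2 features called, at -0.40 (SE 0.0869, adjusted p = 0.00215, 8 of 9 pigs), with levels of 0.08 ± 0.19 at 6 h and -0.32 ± 0.15 at 2 d. Its brighter feature was at -0.15 and not called. Of the 10 features of CKM none was called, and the estimates ran from -0.42 to 0.15, with 6 above 0 and 4 below. The 2 with an unadjusted p below 0.05 were both lower at 2 d, each in 8 of 9 pigs. They were at -0.42 (adjusted p = 0.0534) and -0.40 (adjusted p = 0.0901), while the brightest CKM feature was at 0.14. Whether each symbol belongs to its feature was not tested.

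Most features that differed carry no symbol, 26 of the 29 that were higher and 83 of the 89 that were lower. The platform table used here does not pair them with genes. The largest fall was in feature 7142, from a median of 1.74 at 6 h (lowest 1.43, highest 2.02) to 0.17 at 2 d (lowest -0.27, highest 0.58). It differed by -1.67 (SE 0.153, adjusted p = 3.08e-10) in 9 of 9 pigs, without overlap. Feature 4842 fell from a median of 2.39 (lowest 1.48, highest 2.85) to 1.05 (lowest 0.61, highest 1.40), a difference of -1.28 (SE 0.136, adjusted p = 5.57e-09) in 9 of 9 pigs. Both were called under all 21 alternatives, with adjusted p of at most 0.000119.

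The largest rise was in feature 6695, from a median of -0.02 at 6 h (lowest -0.36, highest 0.09) to 0.82 at 2 d (lowest 0.17, highest 1.12). It differed by 0.87 (SE 0.139, adjusted p = 2.88e-05) in 9 of 9 pigs, without overlap, and the smallest difference was 0.15 in pig D. Its mean level was 0.01 ± 0.36 in non-injected muscle, -0.15 ± 0.24 at 7 d and -0.02 ± 0.36 at 21 d, so its highest mean was at 2 d. Feature 7571 rose from a median of 0.35 to 0.88, a difference of 0.60 (SE 0.0923, adjusted p = 1.62e-05) in 9 of 9 pigs, with overlapping groups. Its mean level was 0.97 ± 0.26 at 2 d, against 0.36 ± 0.20 at 6 h and 0.34 ± 0.21 at 7 d.

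The falls were larger than the rises. Of the 89 features called lower 40 differed by more than 0.5 and 8 by more than 1, while 5 of the 29 called higher differed by more than 0.5 and none by more than 1. The median difference was -0.47 among those lower and 0.35 among those higher. All 9 pigs shared the sign in 45 of the 89 and 14 of the 29, and at least 8 pigs in 83 and 26. These sizes describe features that the test itself selected.

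Along the feature list, in the 9 blocks of 384 features that held over 100 tested features each, the share called ran from 4.17% to 10.4%, and the other 2 blocks, with 27 and 36 tested features, held none.

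The levels of the called features at the other ages are given as a description, since those arrays entered the same fit through the animal block and the shared spread. The 89 features lower at 2 d had a median group mean of 0.79 at 6 h and 0.24 at 2 d, and of 0.19 in non-injected muscle, 0.94 at 7 d and 0.67 at 21 d. The 29 features higher at 2 d had a median of 0.44 at 6 h and 0.85 at 2 d, and of 0.74 in non-injected muscle, 0.34 at 7 d and 0.44 at 21 d. In both sets the 2 d lesions were closer to non-injected muscle in this median than the lesions of 6 h, 7 d and 21 d were. The fit of 6 h and 2 d shares the 6 h and 2 d arrays with any comparison to these groups, so no test was set on this order. Both sets were also picked for a 2 d level away from that of 6 h. The mean of non-injected muscle lay above that of 2 d in 47 of the 89 features and 11 of the 29, beside 1064 of all 1908. Before normalization, the SD over features within an array ran from 0.384 (7 d, pig D) to 1.26 (non-injected, pig J). Non-injected arrays lay at 0.974 or above, apart from pigs C (0.528) and L (0.594). At 7 d the highest was 0.839 (pig K), and at 21 d it ran from 0.424 to 0.736 apart from pig C at 1.10. The 6 h arrays in the fit ran from 0.587 to 0.903 and those of 2 d from 0.686 to 0.961. The spread thus differed between the groups. Whether this spread had a part in the order was not tested.

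**Figure D4:**
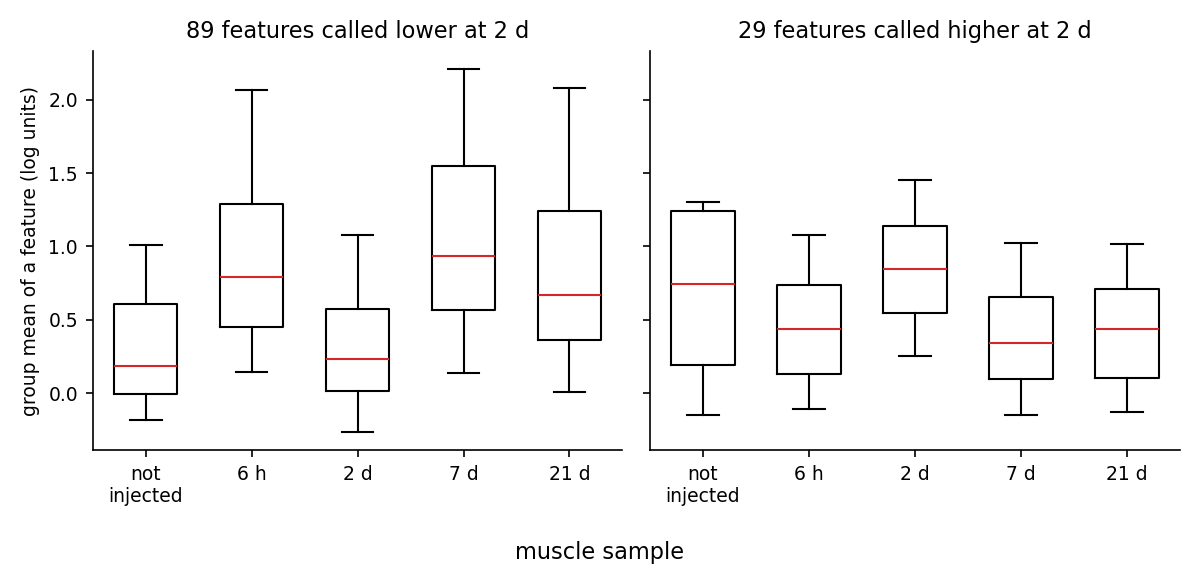
Group means in log units (y axis) of the features called lower (left, 89) and higher (right, 29) at 2 d against 6 h, for non-injected muscle and the 4 lesion ages (x axis). Boxes span the quartiles over features, red lines are medians and whiskers the 10th to 90th percentile; the lower set has medians of 0.19, 0.79, 0.24, 0.94 and 0.67 from left to right.

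The pigs did not take an equal part. For each of the 9 pigs with both ages, the features called by a fit without that pig were read in the difference of that pig alone. In pigs C, E, I, J, K and L between 91.1% and 97.8% of these features had the sign of the fit. In pig D it was 76.6%, in pig G 73.6% and in pig H 57.1%. Over all 1908 features the share with the sign of that fit ran from 39.8% in pig H to 69% in pig L. In pig H the features called lower by the other pigs had a median of -0.08, and in the other 8 pigs this median ran from -0.63 to -0.22. XIRP2 was at -1.09 in pig H. Without pig H 133 features were called, and without pig D 128. Pigs D, G and H each had an array that matched the mean profile of the other arrays less well. Its r was 0.786 for the 2 d array of pig D, 0.817 for the 6 h array of pig G and 0.894 for the 6 h array of pig H. Among the 6 h and 2 d arrays of pigs C, E, I, J, K and L the lowest r was 0.919 (2 d, pig C). Whether array quality had a part in the differences between pigs was not tested.

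**Figure D5:**
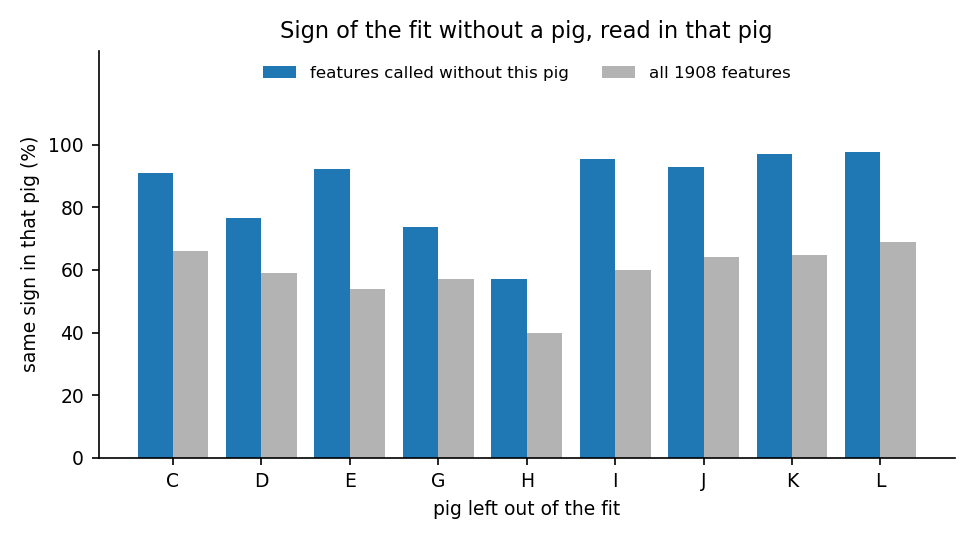
Share of features (y axis, percent) whose difference in a pig had the sign found by the fit without that pig (x axis), for the features called by that fit (blue) and for all 1908 features (grey). Pigs C, E, I, J, K and L lie between 91.1% and 97.8%, and pig H is lowest at 57.1%.

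Arrays differed in the spread of their values before normalization. The SD over features within an array was 0.744 ± 0.093 (SD, n = 9) at 6 h and 0.813 ± 0.101 (n = 9) at 2 d in the paired pigs, a difference of 0.0697 with the 2 d array wider in 7 of 9 pigs (exact sign-flip permutation test, two-sided p = 0.145, smallest possible p = 0.00391). With array SD as a covariate 144 features were called, 33 higher and 111 lower, and 115 of the 118 stayed among them. XIRP2 and JAK1 stayed called there and under every one of the 21 alternatives, XIRP2 between -1.20 and -1.06 and JAK1 between -0.55 and -0.41 (adjusted p up to 0.0368). The array numbers in the sample titles, whose meaning is not given, lay 3 apart between both ages in pigs E, K and L and 69 to 181 apart in the other pairs. XIRP2 differed by -1.19 to -0.84 in pigs E, K and L and by -1.35 to -0.75 in the others, and JAK1 by -0.89 to -0.31 and by -0.79 to -0.09.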

How the data were processed

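The deposited table holds 90 columns for 48 muscle samples. Per the labels and the design text, radioactive cDNA was hybridised to 1 array per sample, imaged at 25 micrometres, and spots were quantified through a grid. The values deposited by the authors are on a log scale of unstated base, from -1.33 to 5.00; filter, centring and background are not given in the sources used here. Of 4608 features, the 1908 with values throughout all columns were tested. Of these 206 carry 1 symbol, 0 several and 1702 none in the platform annotation, and 204 gene identifiers matched the current table.

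Both columns of a sample were averaged (identical in 41 of 42 pairs). The 6 h array of pig F and the copied 6 h column of pig J were left out. The remaining 47 arrays of all 5 groups, which share 1 estimate of the spread, were quantile normalized and fitted by limma 3.58.1 in R 4.3.3 with the pig as a fixed block, and p-values were adjusted over 1908 features. Pairing follows the study design: deviations from group means of 6 h and 2 d arrays correlated at a median of 0.0466 within pigs and -0.0241 between pigs. Pig F enters through its other arrays. On simulated data with 200 of 1908 features changed, the fit recovered 37% of differences of 0.3 and 95% of 0.6, with 3 false calls. The simulated noise was normal and independent between features and arrays. It held no pig effects and no differences between arrays in spread or quality. These shares and the false calls therefore need not hold for the real arrays. The number of arrays limits the precision.

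Genes named are all those called with 1 feature per gene, the next 15 by p, the 3 smallest p of each list with at least 3 measured genes, and the 2 largest rises and falls without a symbol seen in at least 80% of pairs. MYH7, ATP2A2, NDUFA4, NFKBIA, ANKRD1, MYOZ1, RACK1 and the single measured genes of lists (CD74, PECAM1, HSP90AA1, CAPNS1) fall outside that rule and were named after their values were seen. The same holds for MYL2, TPM3 and RPS20 and for the further features given for ACTB, CKM, MYH7, RACK1 and RPL19. The comparison, its members and the 14 gene lists were chosen with earlier results of these data known. Figures were drawn with matplotlib 3.10.9.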

Additional observations from a re-analysis of the deposited data

Results flagged for a closer look

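In 20 groups of 9 or 10 lesions (the 5 called genes, the 4 features without a symbol and the within-array SD, at each age), 4 had a sample far from the others by Dixon's criterion, which chance alone gives in about 1 of 20 groups. XIRP2 at 6 h was lowest in pig D at 0.76, and at 2 d highest in pig E at 0.647. QDPR at 6 h was lowest in pig G at 0.582, and at 2 d lowest in pig D at 0.82. XIRP2 stayed called without pig D and without pig E. QDPR lost its call without pig G (0.23, adjusted p = 0.068) and kept it without pig D (0.33, adjusted p = 0.0064).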

How the results depend on the processing

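The count of 118 features became 40 on values without scaling between arrays, 43 on median-centred values and 315 with array weights (124 higher, 191 lower), and without 1 pig at a time it ran from 90 to 133. Of the 40 and 43, 38 and 42 were among the 118. The 5 genes with a symbol became 2 in either scaling alternative (XIRP2 and JAK1), 3 with only 6 h and 2 d lesions, with the 6 h array of pig F kept, with the copied column of pig J kept and with the pig as a random block, 14 with array weights, and 3 to 6 without 1 pig. Without the replicate block 125 features and 5 genes were called; PMVK replaced TPM2. Of 924 values of named features under alternatives, 863 kept direction and side of the threshold, 38 lost the call, 13 gained it and 10 reversed, none of these called. The reversals were ANPEP (-0.0012 without scaling, -0.101 with array weights, -0.0176 with the local trend subtracted, -0.0573 without pig D; leaving out 1 pig at a time it ran from -0.0573 to 0.0559, and over all alternatives from -0.101 to 0.0735), CFL1 (0.119 without scaling, 0.126 median-centred, 0.122 with the 6 h array of pig F) and TUBA1B (0.0141 with array weights, 0.00439 without pig C, 0.0118 without pig G; leaving out 1 pig at a time it ran from -0.0436 to 0.0118, and over all alternatives from -0.0666 to 0.0141). The difference in within-array SD was 0.0322 as an interquartile range (exact permutation p = 0.816) and 0.0472 to 0.0933 without 1 pig, an alternative chosen after seeing the data. Of 44 named features, the difference moved by over 1.5 times in 11 under either scaling alternative, in 13 with the 6 h array of pig F kept, in 15 with array weights, in 12 without pig G and in 1 to 5 without any other pig. Why scaling and weights move the counts was not tested.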
